A study of Homo sapiens with 6 samples.

Results

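Claudins are a family of tetraspan membrane proteins of the tight junction, the seal between neighbouring epithelial cells. The transcripts of 10 of them, CLDN1, CLDN2, CLDN3, CLDN4, CLDN6, CLDN7, CLDN9, CLDN11, CLDN12 and CLDN15, are described here in SW480 cells, a human colorectal cancer cell line, with and without silencing of ZEB1. The members were taken as the entries whose gene name was one of these 10 symbols, out of 32029 genes counted. The control group consisted of 3 wild-type SW480 cultures that received a non-targeting siRNA (siControl). The knockdown group consisted of 3 SW480 cultures that received siRNA against ZEB1 (siZEB1). Total RNA was sequenced after 48 h of transfection. Both groups were transient transfections of a single line, and the study described the 3 samples of each group as biological replicates. The number and sequence of the siRNAs were not given in the sources used here, and the labels carried no batch or date.

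Claudins interlock in the membrane of one cell and with partners on the next cell through their extracellular loops, and most bind the scaffold proteins ZO-1 to ZO-3 through their C-terminal tail. Some, such as CLDN1 and CLDN3, tighten the barrier, whereas others, such as CLDN2 and CLDN15, form paracellular channels for small cations. Loss of junction proteins is part of the epithelial-mesenchymal transition, and ZEB1 is a zinc-finger repressor of that program which binds E-box sequences of the CAGGTG type, in either orientation.

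The 6 libraries held between 19040636 and 22357633 counted reads. ZEB1, the targeted gene, reached 1247, 1276 and 908 reads in the siControl cultures against 136, 132 and 162 in the siZEB1 cultures, at -2.85 on the log2 scale (SE 0.11, adjusted p = 4.85e-12, edgeR's quasi-likelihood test with Benjamini-Hochberg adjustment). All log2 fold changes below are siZEB1 against siControl from that fit. Among epithelial markers of the colon and rectum, KRT8 had between 63244 and 76451 reads per culture, whereas CDH17 had at most 5, KRT20 at most 20 and GPA33 at most 17. Of 8 markers of other cell types with an entry, CD3E and COL3A1 had at most 3 reads in any culture and CD68 and ALB at most 1, whereas COL1A1 had 143 to 227, DES 81 to 145, PECAM1 24 to 35 and VWF 5 to 26.

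The ranges of 300 bases around the annotated starts of the claudin genes are shown first, because they hold the kind of sequence that ZEB1 binds in some members and not in others. They run from 250 bases before the start through 50 bases from it, in RefSeq's annotation of GRCh38.p14, and 9 of the 10 members had 12 such ranges, with 2 starts each for CLDN2, CLDN7 and CLDN11. Both strands were searched for CAGGTG, which reads CACCTG on the opposite strand. One of these was present in 3 of the 12 ranges, belonging to CLDN3, CLDN6 and CLDN7, and in 20.59% of 35116 promoter ranges of the same length over all genes. Those 3 sequences and those of CLDN4 and CLDN15, which changed in level without holding the motif there, are printed 5′ to 3′ on the strand of the gene. Capitals mark CAGGTG and CACCTG.
CLDN7, second start (chr17:7262429-7262728, minus strand): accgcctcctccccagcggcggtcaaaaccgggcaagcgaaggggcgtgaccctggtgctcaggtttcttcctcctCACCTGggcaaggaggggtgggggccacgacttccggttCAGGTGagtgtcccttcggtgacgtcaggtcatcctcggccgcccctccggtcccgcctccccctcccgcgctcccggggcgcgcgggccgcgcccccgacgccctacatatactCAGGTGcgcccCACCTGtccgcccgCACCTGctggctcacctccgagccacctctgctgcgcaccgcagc
CLDN3 (chr7:73770221-73770520, minus strand): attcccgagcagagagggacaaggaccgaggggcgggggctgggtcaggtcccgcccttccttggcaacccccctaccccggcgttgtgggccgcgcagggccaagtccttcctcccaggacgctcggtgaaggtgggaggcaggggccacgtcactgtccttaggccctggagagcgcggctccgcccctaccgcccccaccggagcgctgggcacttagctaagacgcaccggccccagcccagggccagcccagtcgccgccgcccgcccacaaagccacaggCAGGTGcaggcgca
CLDN6 (chr16:3018134-3018433, minus strand): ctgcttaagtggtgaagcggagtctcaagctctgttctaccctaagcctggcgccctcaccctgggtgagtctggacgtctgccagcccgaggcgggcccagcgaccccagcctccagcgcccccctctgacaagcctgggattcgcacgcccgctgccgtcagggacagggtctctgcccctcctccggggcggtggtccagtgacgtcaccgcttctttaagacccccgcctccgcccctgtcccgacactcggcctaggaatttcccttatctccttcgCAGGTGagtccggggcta
CLDN4 (chr7:73830746-73831045, plus strand): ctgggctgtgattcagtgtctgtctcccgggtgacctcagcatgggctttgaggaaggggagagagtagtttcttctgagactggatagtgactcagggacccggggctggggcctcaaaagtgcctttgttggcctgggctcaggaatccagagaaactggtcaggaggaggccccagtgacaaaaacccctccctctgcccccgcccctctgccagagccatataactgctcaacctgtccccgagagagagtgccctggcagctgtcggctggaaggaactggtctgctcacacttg
CLDN15 (chr7:101237753-101238052, minus strand): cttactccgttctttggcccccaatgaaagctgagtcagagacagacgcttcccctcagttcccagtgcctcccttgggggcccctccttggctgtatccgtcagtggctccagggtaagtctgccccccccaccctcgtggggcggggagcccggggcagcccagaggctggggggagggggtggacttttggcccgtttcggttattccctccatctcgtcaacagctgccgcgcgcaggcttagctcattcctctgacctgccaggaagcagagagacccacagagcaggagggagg

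The second start of CLDN7 held 5 matches. Counted from the first transcribed base as 1, with the base before it as -1, they lay at -174 to -169, -135 to -130, -20 to -15, -9 to -4 and 6 to 11. Over all genes, 3.494% of the ranges held 2 or more matches and 33 ranges (0.09397%) held 5 or more. The first start of CLDN7 held none. CLDN3 had its single match at 37 to 42 and CLDN6 at 33 to 38, both downstream of the start. No match lay in the ranges of CLDN1, CLDN2, CLDN4, CLDN11, CLDN12 or CLDN15. A match is a description of the sequence and not a binding site, and no binding was measured in these libraries. The base composition of the ranges differed as well. CLDN3 had 72.0% G and C and the second start of CLDN7 had 71.67%, against 59.0% for CLDN4, 64.0% for CLDN15 and a median of 58.67% over all ranges. This did not follow the motif. The first start of CLDN11 (72.0%) and CLDN1 (67.0%) held no match, and CLDN6, with a match, had 66.0%.

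**Figure D1:**
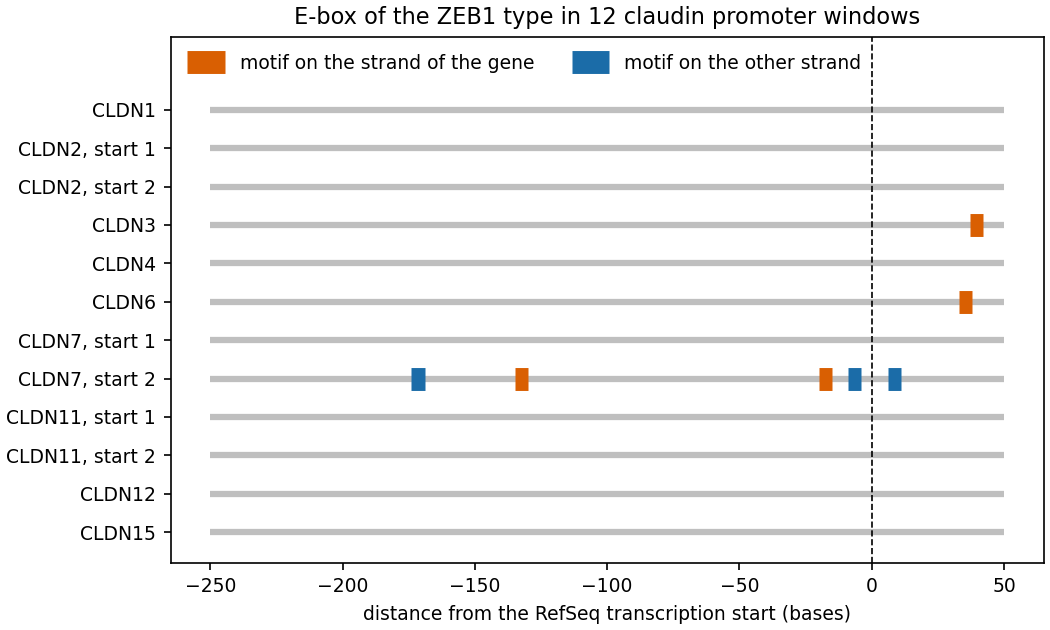
Position of CAGGTG and CACCTG (marks) from 250 bases before to 50 bases from each annotated start (horizontal axis, bases from the start) in the 12 ranges of 9 claudins (rows). The second start of CLDN7 carries 5 marks, CLDN3 and CLDN6 carry 1 each, and the other 9 ranges carry none.

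Compared per kilobase of merged exon, the family was dominated by CLDN4. Its level with siControl was 49.97 ± 1.28 CPM per kb (counts scaled by TMM to library size, divided by exon length in kb, mean ± SD, n = 3). CLDN12 followed at 8.35 ± 0.541, CLDN15 at 6.72 ± 0.578 and CLDN3 at 3.29 ± 0.207 CPM per kb. CLDN6 (0.331 ± 0.0652), CLDN7 (0.250 ± 0.0981) and CLDN9 (0.237 ± 0.0885) came next, and the ranges of their cultures overlapped. CLDN1 (0.109 ± 0.0342), CLDN2 (0.0525) and CLDN11 (0.0358) were the lowest. With siZEB1 the order of CLDN12 and CLDN15 was not resolved, at 9.20 ± 0.623 and 9.75 ± 0.314 CPM per kb.

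**Figure D2:**
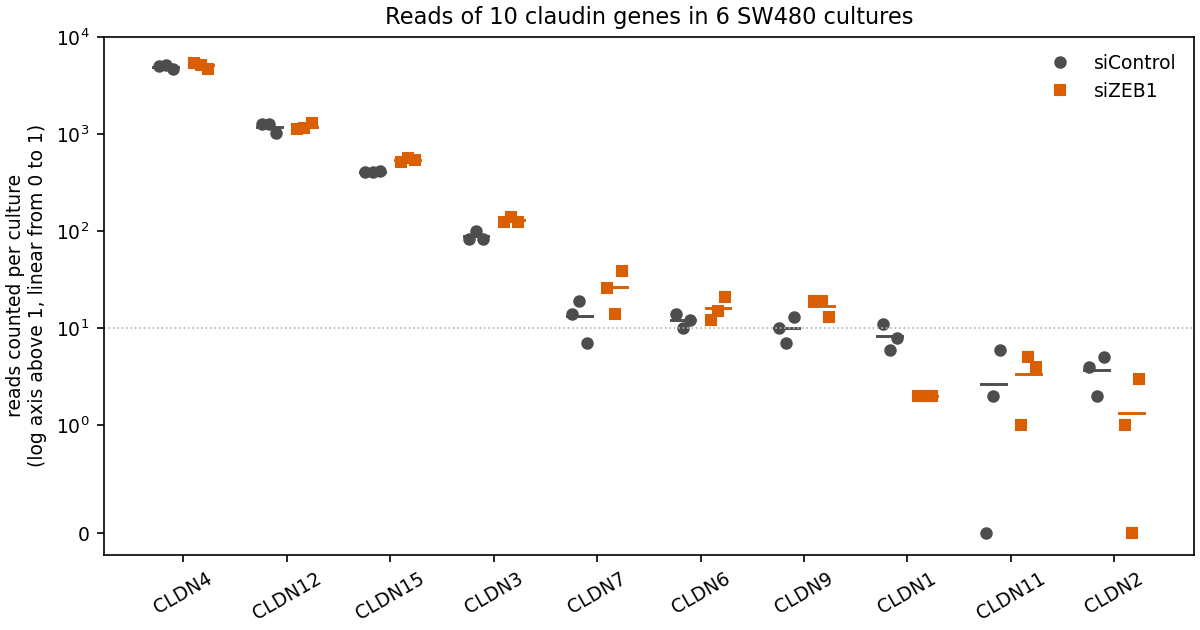
Reads (vertical axis, counts per library, linear near 0 and logarithmic above) of the 10 claudins in each siControl and siZEB1 culture, 1 point per culture. CLDN4 lies between 4643 and 5309 reads in every culture, and CLDN1, CLDN2 and CLDN11 lie at 11 reads or fewer.

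The comparison of siZEB1 with siControl asked which transcripts changed when ZEB1 was silenced. Of the 10 claudins, 7 passed the filter on low counts and 3 (CLDN1, CLDN2 and CLDN11) did not. CLDN3, CLDN4, CLDN7 and CLDN15 were higher with siZEB1 at an adjusted p under 0.05, which is 4 of the 7 tested, beside 19% of the 14996 genes tested. No tested claudin was lower at that threshold, beside 21.2% of all genes tested. With DESeq2 none was lower either, beside 2850 of the 14996 genes. All 7 log2 fold changes were above 0, so none of the 7 was lower at an unadjusted p under 0.05. The 3 members under the filter are outside this count. Without the filter, CLDN1 was at -1.87 (unadjusted p = 0.0107, edgeR), CLDN2 at -1.27 and CLDN11 at 0.41. The median log2 fold change of the 7 was 0.54 and that of all genes tested -0.0055. The counts are descriptions, since the filter was met by CLDN9 in 3 siZEB1 cultures and 1 siControl culture, and by CLDN6 and CLDN7 in 3 and 2, so a low gene could enter through its higher group. The text and the methods of the study use different p thresholds beside a minimum fold, and both were applied. With a fold above 1.5 and an unadjusted p under 0.05, CLDN3, CLDN7 and CLDN9 were higher, beside 7.21% of all genes. With the same fold and an unadjusted p under 0.001, only CLDN3 was higher, beside 4.52% of all genes. In bulk RNA, fewer cells that express a gene and less RNA per cell cannot be told apart.

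CLDN4, a barrier-forming claudin common in intestinal epithelium, rose slightly. Its 5000, 5125 and 4643 reads with siControl corresponded to 235.1, 228.9 and 240.9 CPM. With siZEB1 it had 5309, 5170 and 4700 reads, or 281.2, 268.9 and 245.6 CPM. All 3 siZEB1 cultures were above all 3 siControl cultures after scaling, although the third siZEB1 culture was only just above the highest control. The mean went from 235 ± 6.0 to 265 ± 18.1 CPM, 12.9% higher, with a log2 fold change of 0.17 (SE 0.061, 95% interval 0.047 to 0.30, adjusted p = 0.0294, edgeR). When single cultures were left out, 4 of 6 fits did not make the call, namely those without siControl replicate 1 (adjusted p = 0.0601), siControl replicate 2 (0.122), siZEB1 replicate 1 (0.182) or siZEB1 replicate 2 (0.0952), by edgeR.

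CLDN3, a second sealing claudin, lies beside CLDN4, with 29271 bases between the genes on chromosome 7 (CLDN3 from 73768997 to 73770270, CLDN4 from 73799542 to 73832693, GRCh38, GENCODE 29). CLDN3 reached 83, 99 and 82 reads in the siControl cultures against 124, 141 and 123 in the siZEB1 cultures. In CPM these were 3.90, 4.42 and 4.25 against 6.57, 7.33 and 6.43. The groups were well separated, with the lowest siZEB1 culture far above the highest siControl culture. The mean rose from 4.19 ± 0.264 to 6.78 ± 0.488 CPM, 61.6% higher, with a log2 fold change of 0.69 (SE 0.137, 95% interval 0.40 to 0.98, adjusted p = 0.000652, edgeR). This call held in all 12 alternative fits. The paralogs CLDN3 and CLDN4 shared 22 of the 1225 different 50-base stretches of CLDN3 (1.8%).

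CLDN7, which binds EPCAM at the basolateral membrane in colon epithelium, rose from a very low level and unevenly. It reached 14, 19 and 7 reads in the siControl cultures against 26, 14 and 39 in the siZEB1 cultures. In CPM these were 0.658, 0.848 and 0.363 against 1.38, 0.728 and 2.04. The second siZEB1 culture lay inside the control range, so the groups overlapped, and the third was the highest of all 6. The log2 fold change was 1.12 (SE 0.39, 95% interval 0.28 to 1.95, adjusted p = 0.0317, edgeR). Without siZEB1 replicate 3 it was 0.73 (adjusted p = 0.198), and the call was also lost without siControl replicate 1 (0.0611), siControl replicate 3 (0.0838) or siZEB1 replicate 1 (0.0733). The study listed CLDN7 among putative tumor suppressors that rose in these same samples, so its direction here is not independent evidence. Apart from these libraries, the study reported ZEB1 and HDAC1 at the CLDN7 promoter by ChIP. It also reported more CLDN7 mRNA and protein after knockdown of ZEB1 or of HDAC1, by qRT-PCR and western blot. The gene spans 7259903 to 7263983 on chromosome 17, and 10.79% of its exonic bases overlapped AC003688.1 on the same strand. The counting rule for shared reads was not given in the sources used here, so part of the CLDN7 reads could belong to that gene.

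CLDN1, the sealing claudin needed for the skin barrier, was the only member whose cultures were all lower with siZEB1. It had 11, 6 and 8 reads with siControl and 2 in each siZEB1 culture, and the groups did not overlap. The share of all genes separated in this direction was not counted. The 21.2% of tested genes called lower is another measure, over a set that excludes CLDN1. The separation is therefore a description and not a trait particular to CLDN1. The ratio of the summed reads, 6 against 25, scaled by library size, was 0.264 (exact binomial 95% interval 0.0885 to 0.659, counting error only). An exact two-sided permutation test over the cultures gave p = 0.1, the smallest that 3 against 3 allows. Without the filter on low counts the log2 fold change was -1.87 (unadjusted p = 0.0107, adjusted p = 0.0551, edgeR). That met a fold above 1.5 and an unadjusted p under 0.05 in the lower direction, beside 1804 of 32029 genes.

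CLDN15, which forms cation channels in the intestine, rose in every culture. It reached 401, 406 and 411 reads in the siControl cultures against 519, 562 and 534 in the siZEB1 cultures. In CPM these were 18.9, 18.1 and 21.3 against 27.5, 29.2 and 27.9. No siZEB1 culture came near the control range. The mean rose from 19.4 ± 1.67 to 28.2 ± 0.908 CPM, 45.1% higher, with a log2 fold change of 0.54 (SE 0.086, 95% interval 0.36 to 0.72, adjusted p = 8.85e-05, edgeR). The call held in all 12 alternative fits. The interval lay above that of CLDN4, whose upper bound was 0.30.

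CLDN2, the other cation-channel claudin of the gut, reached 4, 2 and 5 reads in the siControl cultures against 1, 0 and 3 in the siZEB1 cultures. The summed reads gave a scaled ratio of 0.400 (exact binomial 95% interval 0.0928 to 1.35, counting error only), and an exact permutation test gave p = 0.2. The cultures of the groups overlapped, and the interval included no change.

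CLDN12, an unusual claudin that lacks the C-terminal motif by which most others bind ZO scaffolds, was second to CLDN4 in CPM per kb with siControl and did not pass the test. It reached 1268, 1271 and 1010 reads in the siControl cultures against 1121, 1151 and 1280 in the siZEB1 cultures. In CPM these were 59.6, 56.8 and 52.4 against 59.4, 59.9 and 66.9. The first siControl culture lay inside the siZEB1 range. The log2 fold change was 0.14 (95% interval -0.017 to 0.30, adjusted p = 0.146, edgeR), with the same upper bound, once rounded, as CLDN4. Of its exonic bases, 16.33% overlapped other genes on the same strand.

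CLDN6 and CLDN9 are neighbours on chromosome 16, with 206 bases between them, and CLDN6 is known as a claudin of embryonic epithelia. CLDN9 reached 10, 7 and 13 reads in the siControl cultures against 19, 19 and 13 in the siZEB1 cultures. The lowest siZEB1 culture, at 0.679 CPM, was barely above the highest siControl culture at 0.674. Its log2 fold change was 0.89 (SE 0.38, 95% interval 0.077 to 1.70, adjusted p = 0.0760, edgeR), and it met the threshold without siControl replicate 3 (1.18, adjusted p = 0.0451). CLDN6 reached 14, 10 and 12 reads in the siControl cultures against 12, 15 and 21 in the siZEB1 cultures. Its groups overlapped, and the log2 fold change of 0.54 had a 95% interval of -0.23 to 1.32 (adjusted p = 0.255, edgeR). Of the 50-base stretches in the CLDN6 transcripts, 8.01% (139 of 1736) also occurred in another gene, 25 of them in CLDN9 and the others in AL353807.1, so reads may have been divided between these genes.

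CLDN11, a claudin of myelin and of Sertoli cells, reached 0, 2 and 6 reads in the siControl cultures against 1, 5 and 4 in the siZEB1 cultures. The groups overlapped, and the scaled ratio of summed reads was 1.37 (exact binomial 95% interval 0.488 to 4.01, counting error only). Of its exonic bases, 18.3% overlapped another gene on the same strand. Over all 7 tested members, CLDN3, CLDN4, CLDN9 and CLDN15 had every siZEB1 culture above every siControl culture, beside 24.3% of all genes tested. This count is a description. CLDN9 met the filter in 3 siZEB1 cultures and 1 siControl culture, and was separated only by 0.679 against 0.674 CPM.

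**Figure D3:**
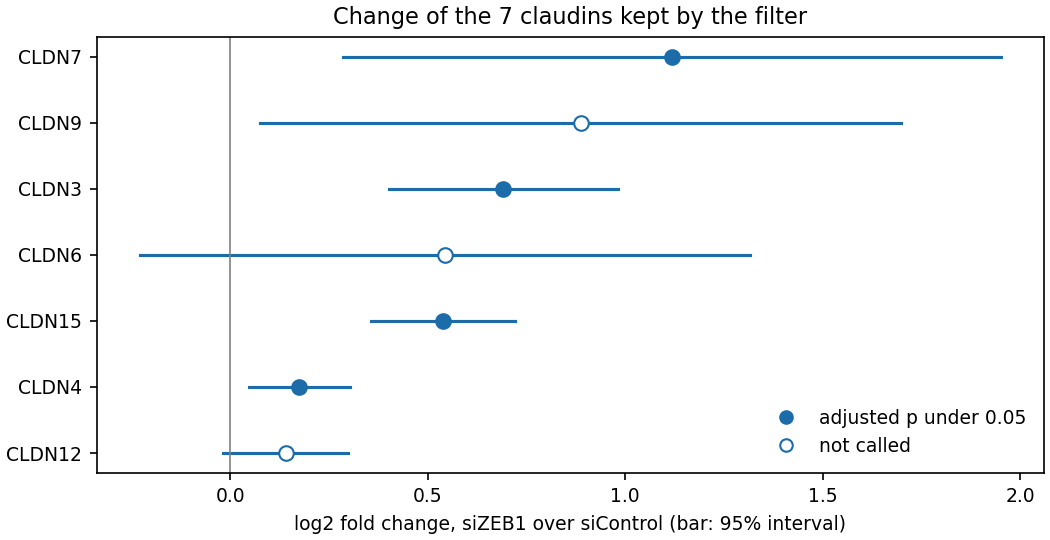
Log2 fold change of siZEB1 against siControl (horizontal axis) for the 7 claudins that passed the filter on low counts, with bars for the 95% interval of edgeR's fit. All 7 points lie above 0, and the bars of CLDN6 and CLDN12 cross 0.

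Summed over the 10 members, claudin reads came to 320.0, 310.2 and 321.5 CPM with siControl and 377.9, 368.2 and 351.1 CPM with siZEB1. Every siZEB1 culture was above every control, and the mean was 317 ± 6.12 against 366 ± 13.6 CPM, 15.3% higher. CLDN4 supplied most of it in both groups, with 74.1 ± 0.765% of the summed reads with siControl and 72.5 ± 2.29% with siZEB1. The mean of CLDN4 alone went from 235 to 265 CPM, and its call was lost in 4 of 6 fits that left out 1 culture. The sum itself was not tested. The share of CLDN15 was 6.12 ± 0.442% and 7.72 ± 0.386%, and that of CLDN3 was 1.32 ± 0.103% and 1.85 ± 0.128%. The 6 members other than CLDN3, CLDN4, CLDN12 and CLDN15 together made up 0.755 ± 0.0831% and 0.951 ± 0.237%.

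**Figure D4:**
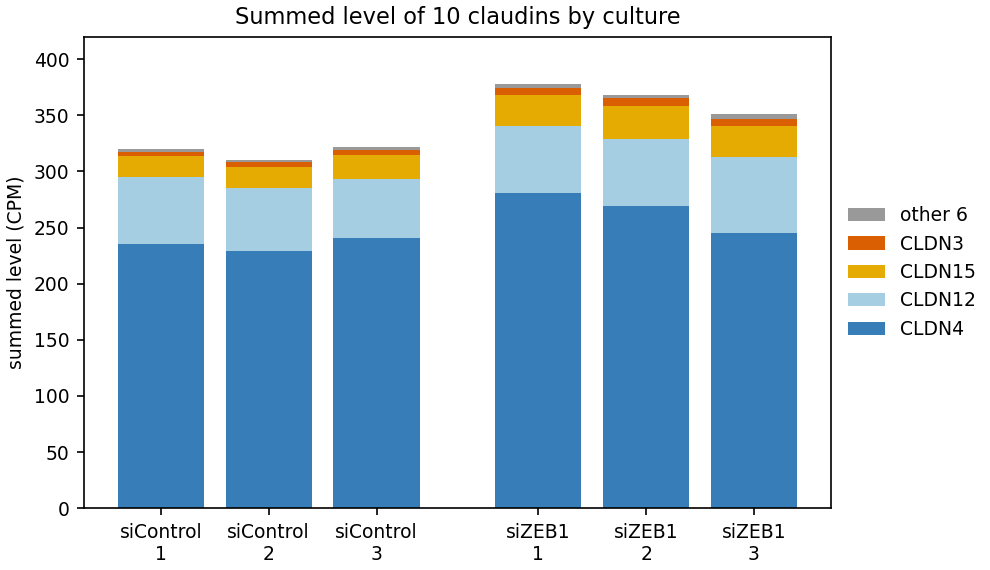
Summed level of the 10 claudins (vertical axis, TMM-scaled CPM) in each of the 3 siControl and 3 siZEB1 cultures, with the part of each bar taken by CLDN4, CLDN12, CLDN15, CLDN3 and the other 6 members. The bars reach 310.2 to 321.5 CPM with siControl and 351.1 to 377.9 CPM with siZEB1.

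Ratios within a culture do not depend on library scaling, and 3 of them were set against CLDN4 after the values had been seen. Per 100 reads of CLDN4, CLDN15 gave 8.02, 7.92 and 8.85 in the siControl cultures and 9.78, 10.9 and 11.4 after ZEB1 silencing. CLDN3 had 1.66, 1.93 and 1.77 against 2.34, 2.73 and 2.62. Both sets were separated, and each gave p = 0.1 in an exact two-sided permutation test (Benjamini-Hochberg adjusted 0.15 over the 3 ratios), the smallest p before adjustment for 3 against 3. CLDN12 gave 25.4, 24.8 and 21.8 per 100 in the siControl cultures and 21.1, 22.3 and 27.2 in the siZEB1 cultures, which overlapped (exact permutation p = 0.9).

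Of 14 other claudins looked for, 7 had an entry and only CLDN23 passed the filter. It reached 12, 11 and 12 reads in the siControl cultures against 5, 17 and 9 in the siZEB1 cultures, with a log2 fold change of -0.04 (adjusted p = 0.95, edgeR). CLDN18 had between 3 and 10 reads per culture and CLDN20 between 0 and 11. CLDN5, CLDN16, CLDN19 and CLDN24 had at most 3 reads in any culture. CLDND1, which carries a claudin-like domain but is not a classical claudin, rose from 22.6 ± 2.32 to 30.8 ± 1.48 CPM (log2 fold change 0.45, SE 0.089, adjusted p = 0.000640, edgeR).

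Of 21 other tight junction genes tested, 12 were higher and 3 lower, beside 19% and 21.2% of all genes tested. The median log2 fold change of the list was 0.29. F11R, which encodes the junctional adhesion molecule JAM-A, went from 6.31 to 54.3 CPM with a log2 fold change of 3.11 (adjusted p = 8.97e-13, edgeR). MARVELD3, a tetraspan junction protein, had a log2 fold change of 3.16, from 0.128 to 1.19 CPM. Its siControl level was under the filter on low counts (0.518 CPM), so it entered the test only through its siZEB1 cultures. Its place in the count of higher genes is a description. MARVELD2, encoding tricellulin, and LSR, encoding angulin-1, both of the tricellular contact, had log2 fold changes of 1.27 and 1.14, and the polarity scaffold PATJ 1.07. These 5 were named as the largest called changes of the list. The 3 lower genes, named after their values were seen, were the scaffold gene MAGI1 (-0.36), the polarity gene PARD3 (-0.20) and YBX3 (-0.15).

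Of 9 tested factors that are known to act on claudin expression, 1 was higher and 2 were lower, close to or below the 19% and 21.2% of all genes tested. The median log2 fold change of the list was -0.013. OVOL2, an epithelial repressor of ZEB1, had a log2 fold change of 2.77, from 0.446 to 3.07 CPM. It was the 1 higher gene, and it too entered the test only through its siZEB1 cultures, so that count is a description. CDX2, an intestinal homeobox factor that can activate the CLDN2 promoter, fell from 103 to 41.8 CPM, with a log2 fold change of -1.30, and the nuclear receptor HNF4A had -0.63. Among the 8 epithelial markers tested, 3 were higher and 2 lower, beside 19% and 21.2% of all genes tested. EPCAM, the binding partner of CLDN7, had 3.05, VIL1 had 2.34 and KRT19 had 1.62, whereas CDX2 was among the lower. The summed level of the epithelial markers ranged from 4855 to 5475 CPM with siControl and from 5362 to 6031 CPM with siZEB1, which overlapped. Most of that sum came from KRT8 and from KRT18, which had 25333 to 31826 reads per culture, so it says little of the other markers. Markers of other cell types summed to between 16.7 and 19.56 CPM with siControl and between 13.53 and 16.31 CPM with siZEB1. Of the 4 tested, 1 was lower, DES (-0.41), near the 21.2% of all genes tested. The part of these shifts in the claudin values was not tested.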

How the data were processed

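Total RNA of 6 SW480 cultures, 3 siControl and 3 siZEB1, was sequenced on an Illumina instrument. The deposited files hold raw read counts per gene, 1 file per culture. The submitters' processing notes name Trimmomatic, HISAT2, SAMtools, featureCounts and hg38, without versions. The strand setting and the treatment of reads shared between genes were not given in the sources used here. Groups came from the sample titles.

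Counts were filtered (filterByExpr), TMM-scaled and tested with edgeR 4.0.16 in R 4.3.3 by the two-sided quasi-likelihood test, with Benjamini-Hochberg adjustment over 14996 genes and a threshold of 0.05. The biological coefficient of variation was 6.582%. CPM per kb used merged exons of GENCODE 29. Shared 50-base stretches were searched in its transcripts, and promoter ranges came from RefSeq. Alternatives were DESeq2 1.42.0, other size factors, other filters, the replicate number as a block, and leaving out each culture. Library totals ran from 19040636 to 22357633 reads. Intervals on summed reads cover counting error only.

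The 10 claudins were named whatever their values, other claudins were named by reads, and from the comparison lists up to 5 called genes with the largest change were named, except 1 marker that is not reported here. The members and lists were chosen with earlier results of these data known.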

Additional observations from a re-analysis of the deposited data

How the results depend on the processing

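CLDN3 and CLDN15 kept their call in all 12 alternative fits, with log2 fold changes from 0.63 to 0.73 and from 0.49 to 0.61. Over the fits that left out 1 culture, CLDN4 ranged from 0.13 to 0.23 and CLDN7 from 0.73 to 1.43, each losing its call in 4 of 6, CLDN9 ranged from 0.64 to 1.18, CLDN6 from 0.30 to 0.71 and CLDN12 from 0.085 to 0.18. CLDN7 and CLDN9 had no value under the filter of at least 10 reads in every culture. The number of claudins called higher was 4 and ranged from 2 to 4 without 1 culture, being 2 without siControl replicate 1 and without siZEB1 replicate 1. By a fold above 1.5 and an unadjusted p under 0.05 the number was 3, ranging from 2 to 4 without 1 culture, and it was 1 with at least 10 reads in every culture. With an unadjusted p under 0.001, a threshold added after seeing the data, it was also 1, and 678 genes were higher in place of 1081. No direction reversed. With the replicate number as a block (replicate block), CLDN4 had a log2 fold change of 0.17 and an adjusted p of 0.117 by edgeR. Same-numbered cultures did not deviate together (correlations -0.0777, -0.120 and -0.276), so the numbers were not taken as pairs. The counts of genes called higher (2289 to 2936) and lower (2637 to 3311) stayed within 1.5 times those given. Library scaling by median-of-ratios size factors or by totals gave 15.9% and 14.6% for the difference in the claudin sum. The cause of the lost calls was not tested. At 21 reads or fewer per culture, counting error limits what can be said of CLDN1, CLDN2, CLDN6, CLDN9 and CLDN11. The same limit holds for CLDN7, at 7 to 39 reads per culture.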
